A study of Mus musculus with 4 samples.

Results

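The IL-2 receptor and STAT5 axis was described here by 9 genes, chosen by name from the pathway out of 33696 genes in the matrices. They were the receptor chains Il2ra, Il2rb and Il2rg, the kinase Jak3, the transcription factors Stat5a and Stat5b, and the feedback regulators Cish, Socs1 and Socs2. All 9 were present in both gene expression matrices. Interleukin-2 is bound by a receptor whose alpha chain (CD25, from Il2ra) raises affinity, while the beta chain (Il2rb) and the common gamma chain (Il2rg) carry the signal. JAK1 on the beta chain and JAK3 on the gamma chain phosphorylate STAT5, which enters the nucleus and drives, among others, Il2ra and Cish. In the thymus this pathway is known for turning CD25-bearing precursors of regulatory T cells (Treg cells) into cells that express Foxp3, the transcription factor that defines the lineage, and precursors with Foxp3 but without CD25 are known as well.

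The series asks how the cytosolic DNA sensor cGAS affects transcription in maturing thymocytes, and its title concerns Treg cells. Droplet-based single-cell RNA sequencing was done on mouse thymocytes sorted for surface CD4 and CCR7, a chemokine receptor gained as thymocytes mature. There was 1 gene expression library from Cd4Cre mice with floxed Cgas alleles (Cd4Cre Cgasfl/fl, called Cgas KO) and 1 from Cd4Cre mice (called WT), with 1 T cell receptor library for each. Both genotypes carried the Cre transgene, which the Cd4 promoter drives from the double-positive thymocyte stage on, so that earlier thymocytes and other cells of the mouse keep cGAS. The sources used here give neither age and sex nor how many mice went into a library. A single library stood for each genotype, so differences between genotypes have no replicate check and were not tested. Ranges in parentheses are exact 95% intervals of counting error, and the spread between mice is not in them. For CPM and ratios of CPM they treat UMIs as independent, so the spread between barcodes is not in them either.

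A STAT5 dimer is known to bind the letters TTCNNNGAA, a palindrome that reads the same on both strands. RefSeq promoter windows of 300 bases, from 250 bases before a gene's annotated start to 50 bases after it, were found for 7 of the 9 genes in the GRCm38.p6 assembly, Il2rb and Socs2 being the ones with no window. The motif was present in 2726 of 32851 windows over all genes, or 8.30%, and at least 2 times in 150 of them, or 0.457%. The Cish window held it 2 times, and the windows of Il2ra, Il2rg, Jak3, Stat5a, Stat5b and Socs1 did not hold it. The stretch with both Cish matches, at chr9:107296654-107296683 on the plus strand, is shown because Cish is a textbook STAT5 target whose level followed Il2ra below. Its capitals mark the matches, and its first 5 bases lie before the annotated start:
Cish: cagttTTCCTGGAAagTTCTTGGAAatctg
A match is a run of letters and not a measured binding site, and a window without a match shows only that these letters are absent from it.

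Barcodes were kept at 2000 or more unique molecular identifiers (UMIs, each counting 1 captured RNA molecule), 500 or more genes and at most 10% mitochondrial UMIs. This left 14381 Cgas KO barcodes with a median of 4507 UMIs and 12929 WT barcodes with a median of 4943. Of these, 276 barcode sequences were kept in both libraries, and 9.58% of Cgas KO and 9.0% of WT barcodes carried at least 2 productive T cell receptor beta chains, a mark of possible doublets. Cgas itself had 221 UMIs in Cgas KO and 337 in WT, a ratio of 0.651 (0.547 to 0.773). Whether these UMIs come from the floxed part is not given, so this does not check the labels. Cd4 stood at 261 CPM in Cgas KO and 256 CPM in WT and Ccr7 at 721 and 617 CPM (Cgas KO, then WT), where CPM is UMI counts scaled to a class total of 1000000.

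Barcodes were classed without any of the 9 genes. Foxp3+ barcodes had at least 1 Foxp3 UMI (378 Cgas KO, 514 WT) and Foxp3- barcodes had none (14003 Cgas KO, 12415 WT). Foxp3- barcodes were split in turn into Cd8 lineage (Cd8b1 with Cd8a and no Cd4, 1260 and 1278), Nr4a1/Egr-high (the top 10% by 4 genes induced by T cell receptor signals, 1327 and 1120), S1pr1+ (the egress receptor of mature cells, 4271 and 3770) and the remaining barcodes (7145 and 6247), Cgas KO first. The label Foxp3+ fitted known Treg markers: 11 of 12 markers other than Foxp3 and Il2ra in Cgas KO and 12 of 12 in WT were at least 1.5-fold higher than in Foxp3- barcodes. The markers summed to 2816 CPM in Foxp3+ and 911 CPM in Foxp3- barcodes of Cgas KO, and to 2605 and 963 CPM in WT.

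The 9 genes fell into a group that was concentrated in Foxp3+ barcodes and a group that was spread over all thymocytes. Il2ra, Il2rb, Cish and Socs2 were 3.87-fold to 29.6-fold higher in Foxp3+ than in Foxp3- barcodes, in both libraries. Il2rg, Jak3, Stat5a, Stat5b and Socs1 stood within 1.5-fold of the Foxp3- level. At the 1.5-fold threshold, 4 of 9 genes were thus higher and 0 of 9 lower in each library. Among all genes with enough counts, 4.52% were higher and 3.95% lower by that much in Cgas KO, and 4.13% higher and 2.57% lower in WT. Socs2, 1 of the 4, stood below the level of 20 CPM required of the genes in that background.

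Of the receptor chains, Il2ra stood at 220 CPM (200 to 241) in Foxp3+ and 8.92 CPM (8.25 to 9.63) in Foxp3- barcodes of Cgas KO. In WT it stood at 183 CPM (169 to 198) in Foxp3+ and 11.3 CPM (10.6 to 12.1) in Foxp3- barcodes. The Foxp3+ over Foxp3- ratio was 24.6 (21.8 to 27.8) in Cgas KO and 16.2 (14.6 to 18.0) in WT. Foxp3+ barcodes made up 2.63% of Cgas KO and 3.98% of WT barcodes but held 41.2% and 43.5% of all Il2ra UMIs. Il2rb was also far above its Foxp3- level, at 260 against 29.7 CPM in Cgas KO and 287 against 38.3 CPM in WT, for ratios of 8.75 (7.96 to 9.62) and 7.49 (6.96 to 8.06). Il2rg, whose chain serves the receptors of IL-4, IL-7, IL-9, IL-15 and IL-21 as well, ran the other way. It stood at 533 CPM in Foxp3+ and 646 CPM in Foxp3- barcodes of Cgas KO, a ratio of 0.825 (0.777 to 0.876), and at 562 and 668 CPM in WT, a ratio of 0.841 (0.803 to 0.881).

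Jak3, the kinase bound to the gamma chain, stood at 54.4 CPM in Foxp3+ and 47.2 CPM in Foxp3- barcodes of Cgas KO and at 56.6 and 50.1 CPM in WT. Its ratios of 1.15 (0.948 to 1.39) and 1.13 (0.972 to 1.31) were within counting error of 1. Stat5a was moderately higher in Foxp3+ barcodes, at 97.4 against 69.3 CPM in Cgas KO (ratio 1.41, 1.22 to 1.62) and 99.5 against 66.6 CPM in WT (ratio 1.49, 1.33 to 1.67). Stat5b stood at 337 against 284 CPM in Cgas KO and 308 against 258 CPM in WT, with a ratio of 1.19 in both libraries. Stat5a and Stat5b are near-identical neighbouring genes, so how their reads were split between them is uncertain.

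The feedback regulators were not alike. Cish, an early-response inhibitor of the IL-2 and T cell receptor pathways, stood at 116 against 23.1 CPM in Cgas KO and 108 against 27.9 CPM in WT. Its ratios were 5.0 (4.35 to 5.72) and 3.87 (3.45 to 4.32). Socs2, known as a STAT5 target in other cell types, was rare outside Foxp3+ barcodes, with 32 UMIs in Foxp3+ and 38 in Foxp3- barcodes of Cgas KO and 61 and 77 in WT. Its levels of 15.3 against 0.517 CPM in Cgas KO and 17.9 against 1.08 CPM in WT gave ratios of 29.6 (17.9 to 48.6) and 16.6 (11.7 to 23.6). Socs1, which inhibits JAK kinases downstream of many cytokines, did not share this pattern. It stood at 145 against 143 CPM in Cgas KO (ratio 1.01, 0.901 to 1.14) and at 112 against 133 CPM in WT (ratio 0.843, 0.759 to 0.934).

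**Figure D1:**
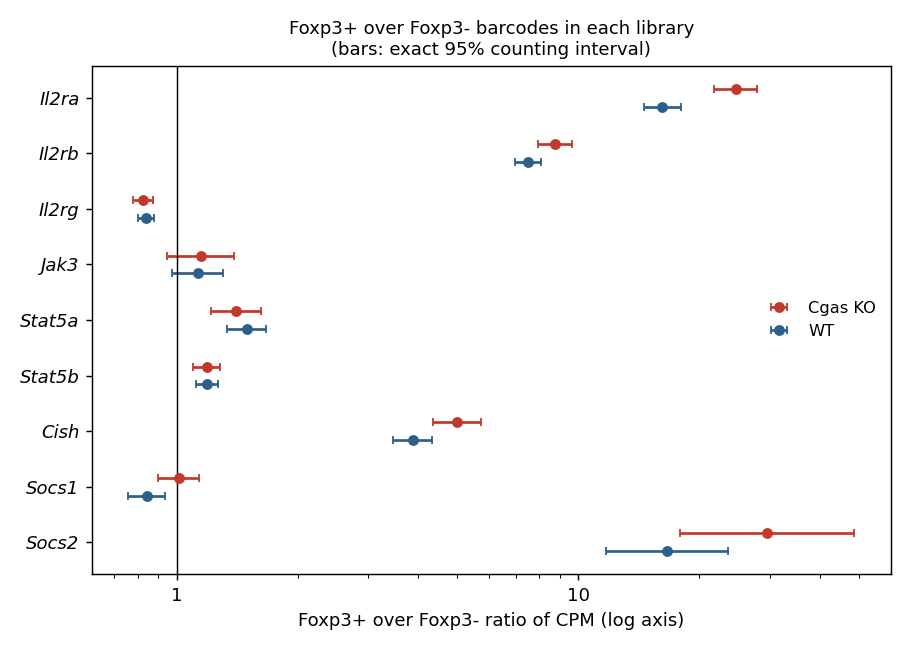
Foxp3+ over Foxp3- ratio of CPM (x axis, log scale) for each gene, with Cgas KO above WT and exact 95% counting intervals as bars. Il2ra, Il2rb, Cish and Socs2 lie between 3.87 and 29.6 in both libraries, and the other 5 genes lie between 0.825 and 1.49.

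RNA outside cells was read from barcodes of 20 to under 200 UMIs, in which Il2ra stood at 29.2 CPM in Cgas KO and 31.5 CPM in WT, above its level in Foxp3- barcodes of both libraries. Il2rb stood there at 46.7 and 62.9 CPM, Cish at 17.6 and 32.6 CPM and Socs2 at 2.25 and 3.26 CPM, Cgas KO first. With free RNA subtracted at 5% of each class total, the Il2ra ratio of Foxp3+ over Foxp3- was 29.2 in Cgas KO and 18.6 in WT. After thinning each barcode to 2000 UMIs at random, 23.8% of Foxp3+ barcodes in Cgas KO (19.6% to 28.4%) and 22.8% in WT (19.2% to 26.6%) had an Il2ra UMI. Without thinning the shares were 33.3% and 37.4%, at median depths of 4575 and 5085 UMIs. The same thinned share was 1.31% of Foxp3- barcodes in Cgas KO and 1.64% in WT. In Cd8 lineage barcodes, which should lack Il2ra, it was 1.11% in Cgas KO and 0.704% in WT, at median depths of 4279.5 and 4790.5 UMIs and with unthinned shares of 1.75% and 1.96%. The Foxp3+ share was thus well above that background in both libraries, while the Foxp3- share of Cgas KO had an interval (1.13% to 1.52%) that overlapped the Cd8 lineage interval (0.609% to 1.86%). In WT the Foxp3- interval (1.43% to 1.88%) lay above that of Cd8 lineage barcodes (0.322% to 1.33%).

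Levels were ordered by the number of Foxp3 UMIs in a barcode, and the same 4 genes stood higher with more Foxp3. From 0, 1 and 2 to 3 or more Foxp3 UMIs, Il2ra stood at 8.92, 125, 303 and 482 CPM in Cgas KO and at 11.3, 89.2, 233 and 341 CPM in WT. Il2rb stood at 29.7, 165, 298 and 571 CPM in Cgas KO and at 38.3, 170, 358 and 476 CPM in WT. Cish stood at 23.1, 80.1, 133 and 227 CPM in Cgas KO and at 27.9, 65.0, 142 and 171 CPM in WT. Il2ra, Il2rb and Cish were thus highest at the top step and lowest without Foxp3 in both libraries. Socs2 followed the same order in Cgas KO, at 0.517, 7.41, 16.0 and 43.3 CPM, while in WT its values of 1.08, 13.4, 11.1 and 31.7 CPM did not separate 1 from 2 UMIs. Il2rg was lowest in the barcodes with most Foxp3, at 419 CPM in Cgas KO and 516 CPM in WT for 3 or more UMIs. Socs1 was not ordered in this way, with 143, 128, 117 and 235 CPM in Cgas KO and 133, 87.6, 99.7 and 169 CPM in WT. The top step held 65 Cgas KO and 131 WT barcodes, with median depths of 4740 and 5714 UMIs, so barcode depth moved with the step in WT, and its part in the order was not tested.

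**Figure D2:**
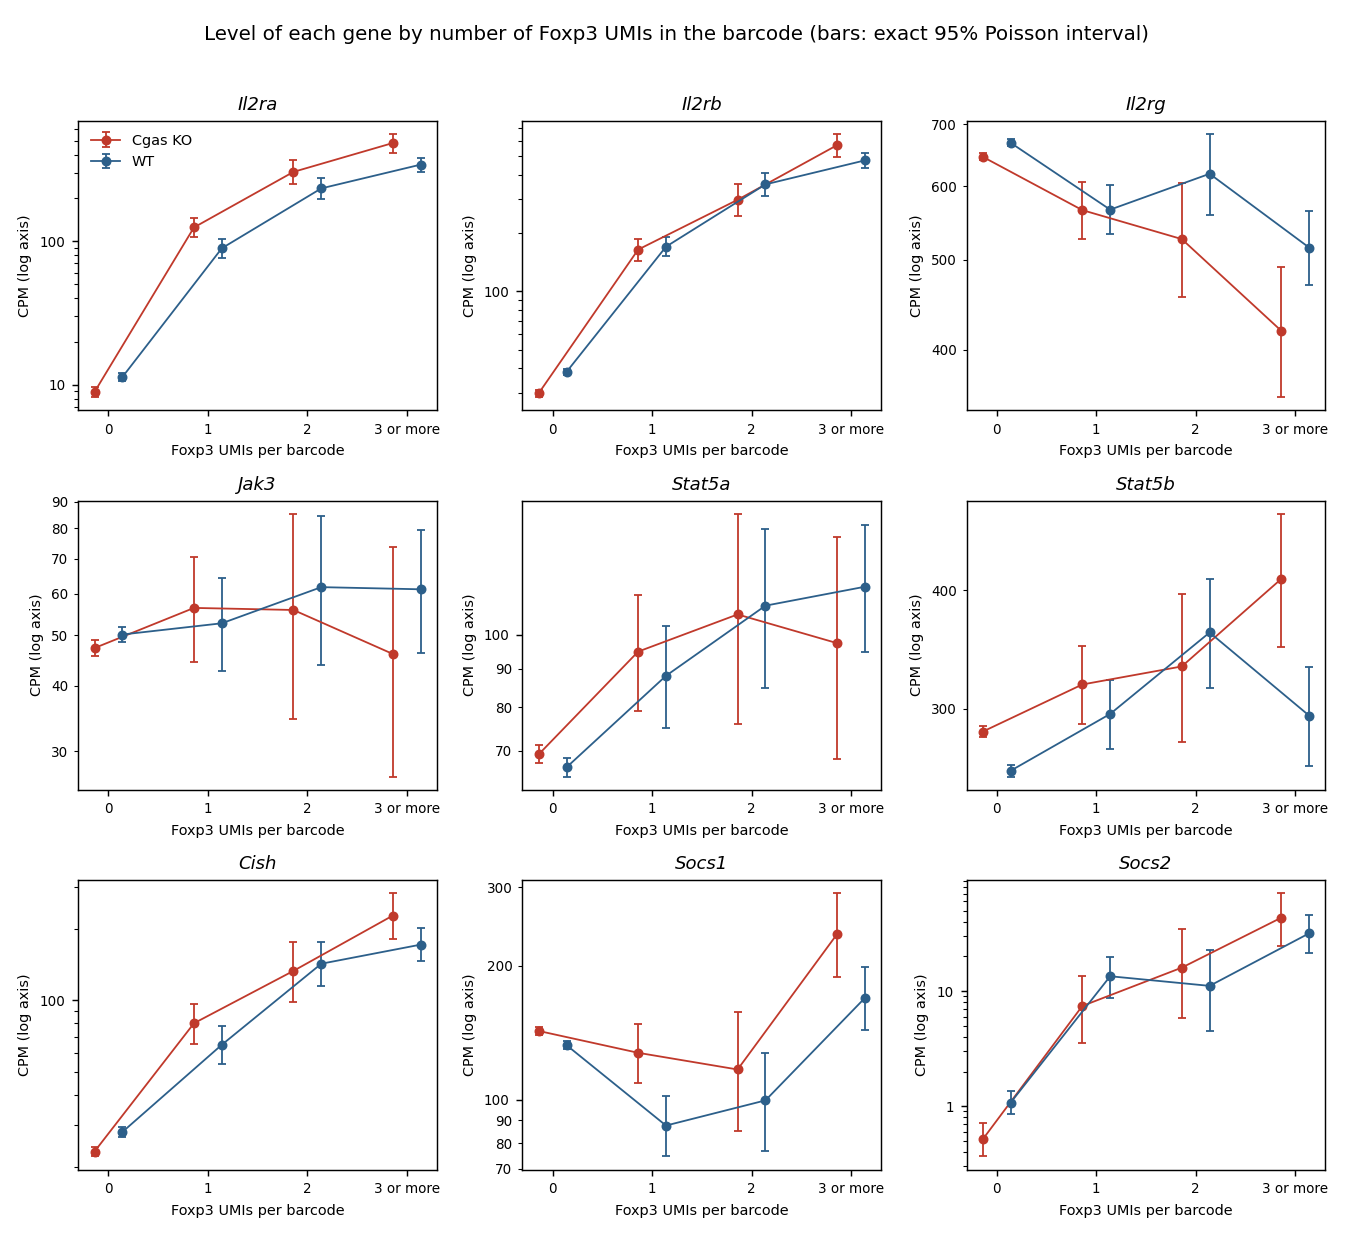
Level of each gene (CPM, log axis) by the number of Foxp3 UMIs in a barcode, Cgas KO in red and to the left, WT in blue, with exact 95% Poisson intervals. Il2ra reaches 482 CPM in Cgas KO and 341 CPM in WT at 3 or more Foxp3 UMIs, and Il2rg is lowest there.

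Foxp3 and Il2ra detection after thinning split the barcodes into 4 groups. In mice, cells with CD25 but no Foxp3 and cells with Foxp3 but no CD25 have been described as Treg precursors. Barcodes with both numbered 58 in Cgas KO (0.403%) and 74 in WT (0.572%), a ratio of shares of 0.705 (0.491 to 1.01). Foxp3+Il2ra- barcodes numbered 158 (1.10%) in Cgas KO and 197 (1.52%) in WT, a ratio of 0.721 (0.581 to 0.893). Foxp3-Il2ra+ barcodes numbered 216 (1.5%) in Cgas KO and 247 (1.91%) in WT, a ratio of 0.786 (0.652 to 0.948). All 3 groups were thus a smaller share of Cgas KO than of WT barcodes, and the interval of the first reached just past 1. Detection of 1 molecule is a weak call: barcodes called Foxp3-Il2ra+ after thinning still held Foxp3 at 49.3 CPM in Cgas KO and 57.6 CPM in WT when all their UMIs were counted, against 2.07 and 4.07 CPM in Foxp3-Il2ra- barcodes.

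Il2rb, Cish and Socs2 were higher where Il2ra was detected, with or without detected Foxp3. In these 4 groups Foxp3+ and Foxp3- are the calls after thinning, so Foxp3- here includes some barcodes that held Foxp3 before it. Among Foxp3- barcodes, Il2rb stood at 195 CPM with Il2ra and 30.0 CPM without in Cgas KO, and at 230 and 39.7 CPM in WT, for ratios of 6.48 (5.63 to 7.42) and 5.79 (5.16 to 6.47). Cish stood at 149 CPM with Il2ra and 22.3 CPM without in Cgas KO, and at 134 and 27.2 CPM in WT, for ratios of 6.66 (5.67 to 7.79) and 4.92 (4.24 to 5.69). Socs2 gave ratios of 32.2 (16.4 to 60.7) in Cgas KO and 26.4 (17.2 to 40.1) in WT from 16 and 37 UMIs in the Il2ra+ barcodes. Stat5a was higher too, with ratios of 1.94 (1.65 to 2.28) and 2.09 (1.81 to 2.40). Stat5b, at ratios of 0.937 (0.835 to 1.05) and 0.923 (0.830 to 1.02), was not higher in these barcodes, and neither were Il2rg, Jak3 and Socs1 by 1.5-fold. Counting Il2ra itself, which the split used, 5 of 9 genes were at least 1.5-fold higher and 0 lower in each library. Of all genes, 6.7% were higher and 5.25% lower in Cgas KO, and 7.02% higher and 5.12% lower in WT.

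Among barcodes called Foxp3+ after thinning, the split by Il2ra gave smaller ratios for Il2rb and Cish and larger ones for Socs1. The comparison is with barcodes called Foxp3- after thinning, and the differences were not tested. Il2rb stood at 517 CPM with Il2ra and 207 CPM without in Cgas KO (ratio 2.49, 1.97 to 3.15) and at 623 and 255 CPM in WT (ratio 2.45, 2.05 to 2.92). Cish stood at 267 and 73.2 CPM in Cgas KO (ratio 3.65, 2.53 to 5.29) and at 256 and 95.5 CPM in WT (ratio 2.68, 2.02 to 3.57). Socs1 stood at 217 CPM with Il2ra and 124 CPM without in Cgas KO (ratio 1.75, 1.24 to 2.45) and at 222 and 107 CPM in WT (ratio 2.09, 1.56 to 2.78), whereas among Foxp3- barcodes its ratio was 1.11 in both. Stat5a had ratios of 0.918 (0.563 to 1.45) and 1.16 (0.813 to 1.63) here. Foxp3+Il2ra+ barcodes held 20 Socs2 UMIs in Cgas KO and 25 in WT, at 71.3 and 64.7 CPM the highest level of that gene in the 4 groups. The count past 1.5-fold, again with Il2ra, was 5 of 9 higher in each library, with 1 lower in Cgas KO and 0 lower in WT. The lower gene was Jak3, with 8 UMIs in Foxp3+Il2ra+ barcodes and a ratio of 0.413 (0.169 to 0.877), against 1.37 (0.848 to 2.17) in WT. Of all genes measured there, 3.92% were higher and 6.19% lower in Cgas KO, and 3.23% higher and 6.42% lower in WT.

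**Figure D3:**
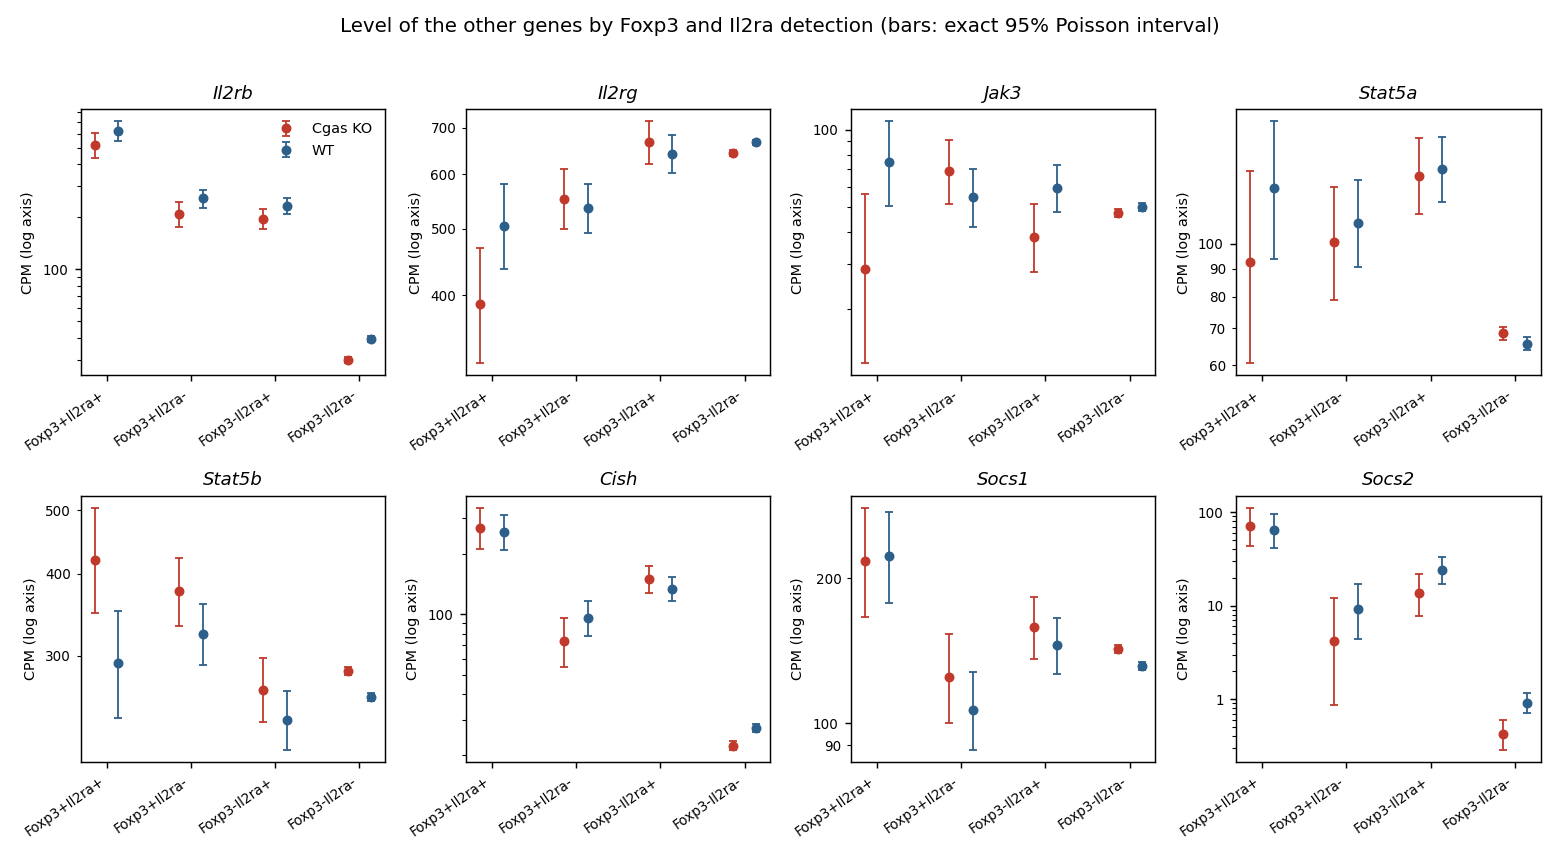
Level (CPM, log axis) of the other 8 genes in barcodes grouped by Foxp3 and Il2ra detection after thinning, Cgas KO in red and to the left, WT in blue, with exact 95% Poisson intervals. Il2rb, Cish and Socs2 are highest in Foxp3+Il2ra+ and lowest in Foxp3-Il2ra- barcodes, while Stat5a has its highest points in Foxp3-Il2ra+ barcodes.

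Among Foxp3- barcodes, the 9 genes also differed by stage and lineage. Nr4a1/Egr-high barcodes, those richest in transcripts that T cell receptor signals induce, had Il2ra at 22.9 CPM in Cgas KO and 28.6 CPM in WT, against 7.82 and 10.2 CPM in remaining Foxp3- barcodes, for ratios of 2.92 (2.38 to 3.58) and 2.82 (2.34 to 3.38). Cish stood there at 46.5 and 55.5 CPM, against 22.1 and 24.7 CPM, for ratios of 2.11 (1.84 to 2.41) and 2.25 (1.97 to 2.55), Cgas KO first. These were the 2 of 9 genes at least 1.5-fold higher in that class, and Socs2, with 1 UMI, was the 1 lower gene in Cgas KO, with 0 lower in WT. Of all genes, 2.09% were higher and 2.27% lower in Cgas KO, and 2.3% higher and 2.4% lower in WT. Il2rb was not among them, at ratios of 1.18 (0.999 to 1.38) and 0.990 (0.842 to 1.16). Il2ra stayed far below its level in Foxp3+ barcodes.

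In Cd8 lineage barcodes Il2rb, whose chain also serves IL-15 on CD8 T cells, stood at 49.8 CPM in Cgas KO and 58.8 CPM in WT, against 24.1 and 30.7 CPM in remaining Foxp3- barcodes. Its ratios of 2.07 (1.81 to 2.36) and 1.91 (1.70 to 2.15) made it the 1 of 9 genes past 1.5-fold higher. The 1 lower gene was Socs2, with 1 UMI, in Cgas KO and Il2ra in WT. Of all genes, 2.35% were higher and 3.64% lower in Cgas KO, and 2.52% higher and 4.07% lower in WT. Of the 5 classes of Foxp3+ and Foxp3- barcodes, Il2ra was lowest in this one, at 6.55 CPM (40 UMIs) in Cgas KO and 4.87 CPM (33 UMIs) in WT. Beyond counting error this was below the remaining Foxp3- barcodes in WT, with a ratio of 0.480 (0.325 to 0.686), but not in Cgas KO, with 0.838 (0.586 to 1.17).

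S1pr1+ barcodes, a mature stage, had Jak3 at 57.3 CPM in Cgas KO and 60.4 CPM in WT, against 41.0 and 43.9 CPM in remaining Foxp3- barcodes, for ratios of 1.40 (1.30 to 1.5) and 1.38 (1.28 to 1.48). Il2rb ratios were 1.40 (1.27 to 1.54) and 1.51 (1.38 to 1.64). At 1.5-fold this gave 0 of 9 genes higher and 2 lower (Socs1 and Socs2) in Cgas KO, and 1 higher and 1 lower (Socs2) in WT. Of all genes, 2.94% were higher and 1.87% lower in Cgas KO, and 2.92% higher and 2.09% lower in WT. Socs1 ran in the opposite direction along maturation. It stood at 100.5 CPM in Cgas KO and 100.6 CPM in WT in S1pr1+ barcodes, against 164 and 150 CPM in remaining Foxp3- barcodes, for ratios of 0.612 (0.584 to 0.642) and 0.672 (0.640 to 0.706). In Rag1+ barcodes, an immature stage, Socs1 stood at 244 CPM in Cgas KO and 223 CPM in WT and Jak3 at 21.0 and 26.1 CPM. Foxp3- barcodes with at least 2 UMIs of Ikzf2, which encodes Helios, had Il2ra at 35.5 CPM in Cgas KO and 45.8 CPM in WT and Stat5a at 107 and 103 CPM.

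**Figure D4:**
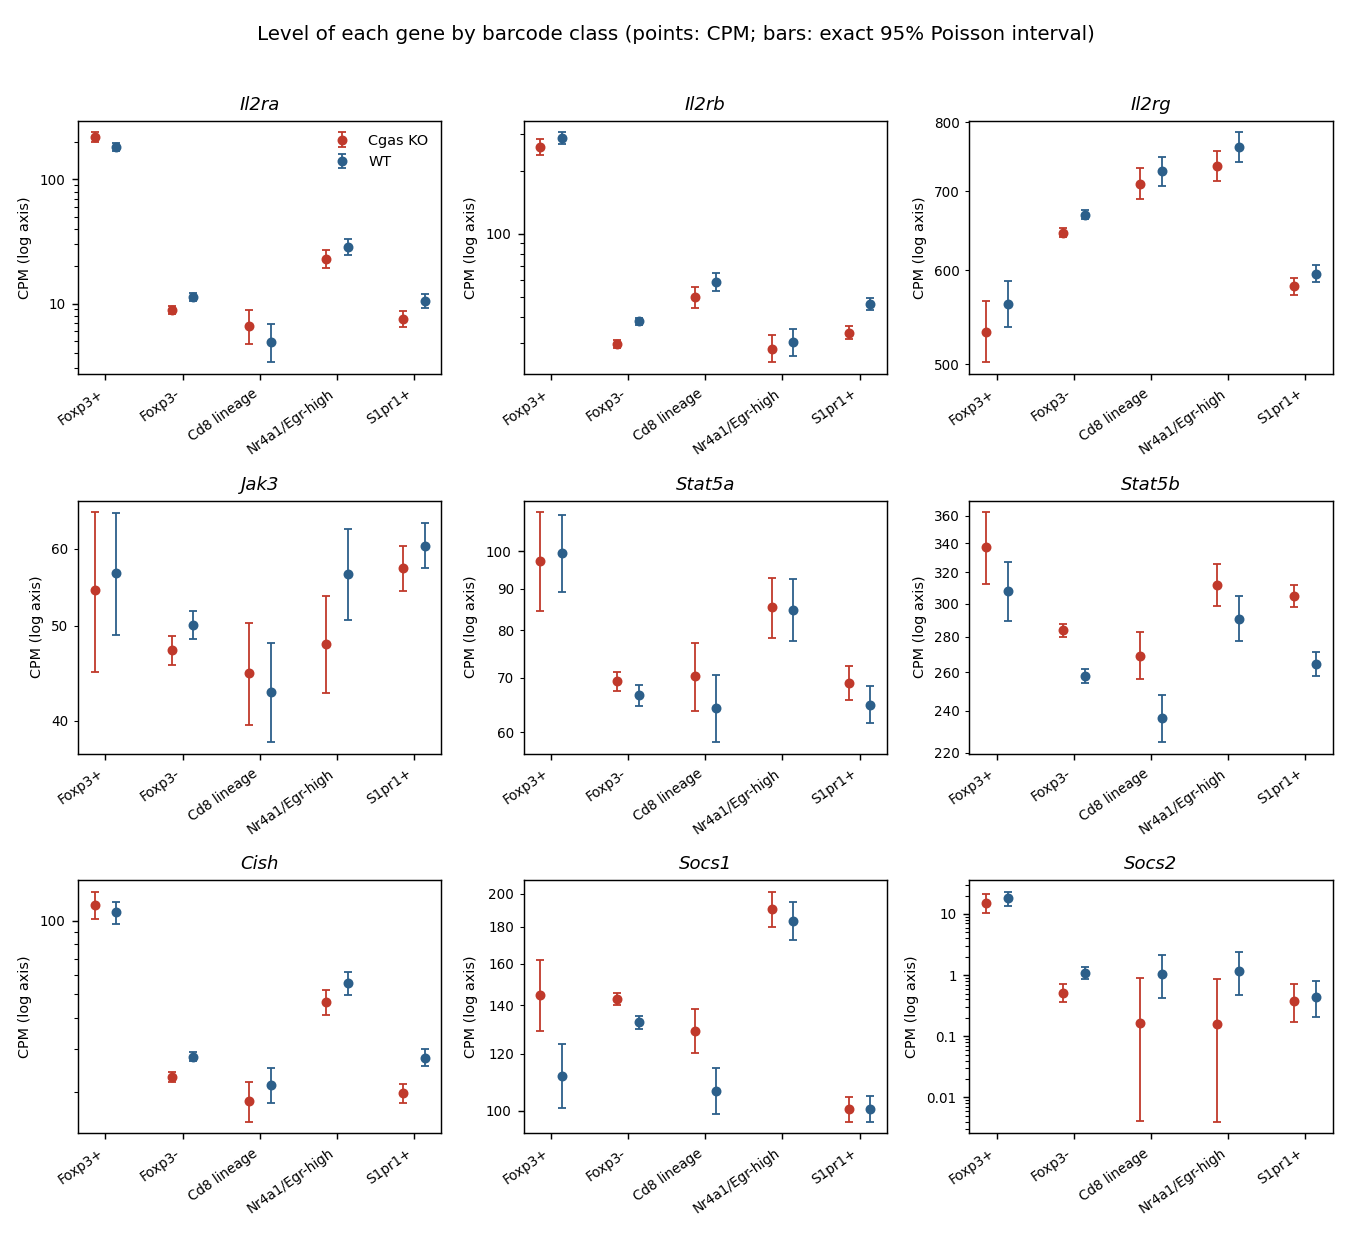
Level of each gene (CPM, log axes that differ between panels) in 5 barcode classes, Cgas KO in red and to the left, WT in blue, with exact 95% Poisson intervals. Il2ra, Il2rb, Cish and Socs2 have their highest points in Foxp3+ barcodes, and Il2rg and Socs1 in Nr4a1/Egr-high barcodes.

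The order of the classes by level was clear for some genes and not for others. For Il2ra, Foxp3+ barcodes came first and Nr4a1/Egr-high barcodes next in both libraries, while the intervals of S1pr1+ and remaining Foxp3- barcodes overlapped. For Il2rb the order ran from Foxp3+ through Cd8 lineage to S1pr1+ in both libraries, but the S1pr1+ and Nr4a1/Egr-high intervals overlapped in Cgas KO. Those of Nr4a1/Egr-high and remaining Foxp3- barcodes overlapped in both. For Jak3 the Foxp3+ interval overlapped that of S1pr1+ barcodes in both libraries. For Stat5b, Foxp3+ and Nr4a1/Egr-high intervals overlapped in both libraries.

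Between genotypes, the 4 genes with a Foxp3+ over Foxp3- ratio past 1.5-fold in both libraries were lower in Foxp3- barcodes of Cgas KO. Il2ra had a Cgas KO over WT ratio of 0.788 (0.710 to 0.874) there, from 8.92 and 11.3 CPM. Il2rb had a ratio of 0.775 (0.733 to 0.820), from 29.7 and 38.3 CPM, and Cish one of 0.828 (0.776 to 0.884), from 23.1 and 27.9 CPM. Socs2 had a ratio of 0.481 (0.317 to 0.718), from 0.517 and 1.08 CPM. At a 1.2-fold threshold, 4 of 9 genes were lower and 0 of 9 higher, against 1.29% of all genes lower and 1.56% higher. Il2ra and Socs2 stood below the level of 20 CPM required of the genes in that background. The other 5 genes stayed within 1.2-fold, with Stat5b at 1.10 (1.08 to 1.12), Socs1 at 1.08 (1.05 to 1.11), Stat5a at 1.04, Il2rg at 0.966 and Jak3 at 0.942.

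These lower values went with fewer barcodes in which the gene was detected. The thinned share of Foxp3- barcodes with an Il2rb UMI was 4.51% in Cgas KO and 5.82% in WT, a ratio of shares of 0.774 (0.694 to 0.862), and unthinned 10.3% and 13.9%. For Cish the thinned shares were 3.92% and 4.57%, a ratio of 0.858 (0.762 to 0.967), and unthinned 9.15% and 11.4%. For Il2ra the ratio of thinned shares was 0.80 (0.652 to 0.981). In Cd8 lineage barcodes the thinned Il2rb share was 7.78% in Cgas KO and 8.06% in WT, above that of Foxp3- barcodes, and the Cish share was 3.33% and 3.52%. In the class sums, fewer expressing cells and less RNA per cell cannot be told apart. Free RNA had Il2rb at 46.7 CPM in Cgas KO and 62.9 CPM in WT and Cish at 17.6 and 32.6 CPM. The free RNA intervals of Il2ra and Socs2 overlapped between the libraries. Foxp3- barcodes can also hold cells whose Foxp3 was missed, and its part in these ratios was not tested. Among Foxp3- barcodes that had 0 Ikzf2 UMIs, a group defined after seeing the data, the ratios were 0.832 (0.674 to 1.03) for Il2ra, 0.754 (0.692 to 0.822) for Il2rb, 0.854 (0.780 to 0.936) for Cish and 0.495 (0.274 to 0.866) for Socs2.

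Within Foxp3- barcodes, split into the 4 classes above, the ratios of Il2ra, Il2rb and Cish were lowest in the mature S1pr1+ class, and whether classes differ in them was not tested. Il2ra stood at 7.52 CPM in Cgas KO and 10.5 CPM in WT, a ratio of 0.714 (0.585 to 0.869), and with barcodes thinned before summing the ratio was 0.581. Il2rb stood at 33.8 and 46.3 CPM, a ratio of 0.729 (0.664 to 0.80), and Cish at 19.8 and 27.6 CPM, a ratio of 0.715 (0.633 to 0.807), Cgas KO first. With 3 of the 8 genes measured lower and 0 higher, this compared with 1.9% of all genes lower and 2.02% higher by 1.2-fold. Il2ra stood below the level of 20 CPM required of the genes in that background. The erythroid markers Hbb-bs and Hba-a1 summed to 179 CPM in Cgas KO and 1.36 CPM in WT in this class, and their part in these values was not tested.

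The other Foxp3- classes were less uniform. In Nr4a1/Egr-high barcodes 1 of 8 genes measured was past 1.2-fold, Il2ra at 0.799 (0.637 to 1.0), against 5.31% of all genes lower and 4.88% higher. Cish, at 0.837 (0.714 to 0.982), and Jak3, at 0.848 (0.724 to 0.992), were just inside the threshold. Above the 95th in place of the 90th percentile of these genes, 0 of the genes passed. In Cd8 lineage barcodes 2 of 8 genes were higher and 0 lower, against 5.85% of all genes higher and 5.13% lower. They were Socs1, at 129 CPM in Cgas KO and 106 CPM in WT with a ratio of 1.21 (1.09 to 1.34), and Il2ra, whose ratio of 1.34 (0.827 to 2.20) from 40 and 33 UMIs was within counting error of 1. Il2ra also stood below the level of 20 CPM required of the genes in that background. Without barcodes that carried 2 or more beta chains, or at a minimum of 1000 UMIs, 1 of the genes passed in that class. Il2rb stood at 0.847 (0.728 to 0.986) there. Socs2 had 1 UMI in Cgas KO and 7 in WT in each of these 2 classes and was not counted.

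In Foxp3+ barcodes Il2ra was higher in Cgas KO by the class sums, and whether this differs from Foxp3- barcodes was not tested. It had 460 UMIs in Cgas KO and 625 in WT, at 220 and 183 CPM, a Cgas KO over WT ratio of 1.198 (1.06 to 1.35) that lay just under the 1.2-fold threshold. With every barcode weighted equally the ratio was 1.05, and with barcodes thinned before summing 1.06 (0.860 to 1.30). The thinned shares of 23.8% and 22.8% gave a ratio of 1.05 (0.786 to 1.39), so at this depth no difference in the share of Foxp3+ barcodes with Il2ra was detectable. In both libraries the 10% of Foxp3+ barcodes richest in Il2ra held most of its UMIs, 59.1% in Cgas KO and 58.4% in WT. In barcodes with at least 2 Foxp3 UMIs the Il2ra ratio was 1.32 (1.14 to 1.53). By step it was 1.40 (1.12 to 1.74) at 1 Foxp3 UMI, 1.30 (1.01 to 1.67) at 2 and 1.41 (1.17 to 1.70) at 3 or more. Each step thus lay above the ratio of the whole class. The step of 3 or more, richest in Il2ra, held 65 of 378 Foxp3+ barcodes in Cgas KO and 131 of 514 in WT. Its part in the ratio of the whole class was not tested.

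Socs1 was the 1 of 9 genes past 1.2-fold in Foxp3+ barcodes, at 145 CPM in Cgas KO and 112 CPM in WT with a ratio of 1.29 (1.11 to 1.51). Of all genes measured there, 9.92% were higher by that much and 11% lower, so that 1 of 9 was close to the background. Over the alternative settings the Socs1 ratio ranged from 1.17 to 1.44. The thinned share of Foxp3+ barcodes with a Socs1 UMI was 20.6% in Cgas KO and 18.1% in WT. The ratio of these shares was 1.14 (0.833 to 1.56), and unthinned they were 39.2% and 40.5%. The Socs1 ratio was 3.23 (1.72 to 6.36) in the few Foxp3+ barcodes that were also Nr4a1/Egr-high, 26 in Cgas KO and 30 in WT with 35 and 15 UMIs. It was 1.205 (1.03 to 1.41) in the other Foxp3+ barcodes. By Helios transcript it was 1.10 (0.898 to 1.35) in Foxp3+ barcodes with at least 2 Ikzf2 UMIs and 1.62 (1.27 to 2.06) in those with fewer.

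By the class sums the remaining genes lay within 1.2-fold in Foxp3+ barcodes. Il2rb stood at 0.906 (0.814 to 1.01), but at 0.760 (0.637 to 0.904) with barcodes thinned before summing and at 1.01 (0.883 to 1.16) with at least 2 Foxp3 UMIs. Stat5b stood at 1.10 (0.994 to 1.21), Cish at 1.07 (0.906 to 1.26), Stat5a at 0.979, Jak3 at 0.961 and Il2rg at 0.947. Socs2 stood at 0.854 (0.538 to 1.33). Some of these genes differed more in parts of the class, and this was not tested. Stat5b stood at 1.39 (1.14 to 1.71) in barcodes with 3 or more Foxp3 UMIs. Foxp3+ barcodes that were also Nr4a1/Egr-high numbered 26 in Cgas KO and 30 in WT. In them Il2rb stood at 0.611 (0.384 to 0.951) and Jak3 at 2.60 (1.03 to 7.07), the latter from 15 and 8 UMIs. Of markers of other cells, B cell genes summed to 7.16 CPM in Cgas KO and 18.2 CPM in WT in Foxp3+ barcodes. Dendritic cell genes summed to 101 and 161 CPM there, with Siglech and Xcr1 at 0 in both. The highest single dendritic cell marker stood at 96.4 CPM in Cgas KO and 100 CPM in WT, so the other markers held more of the sum in WT. The part of these other cells in the values was not tested.

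**Figure D5:**
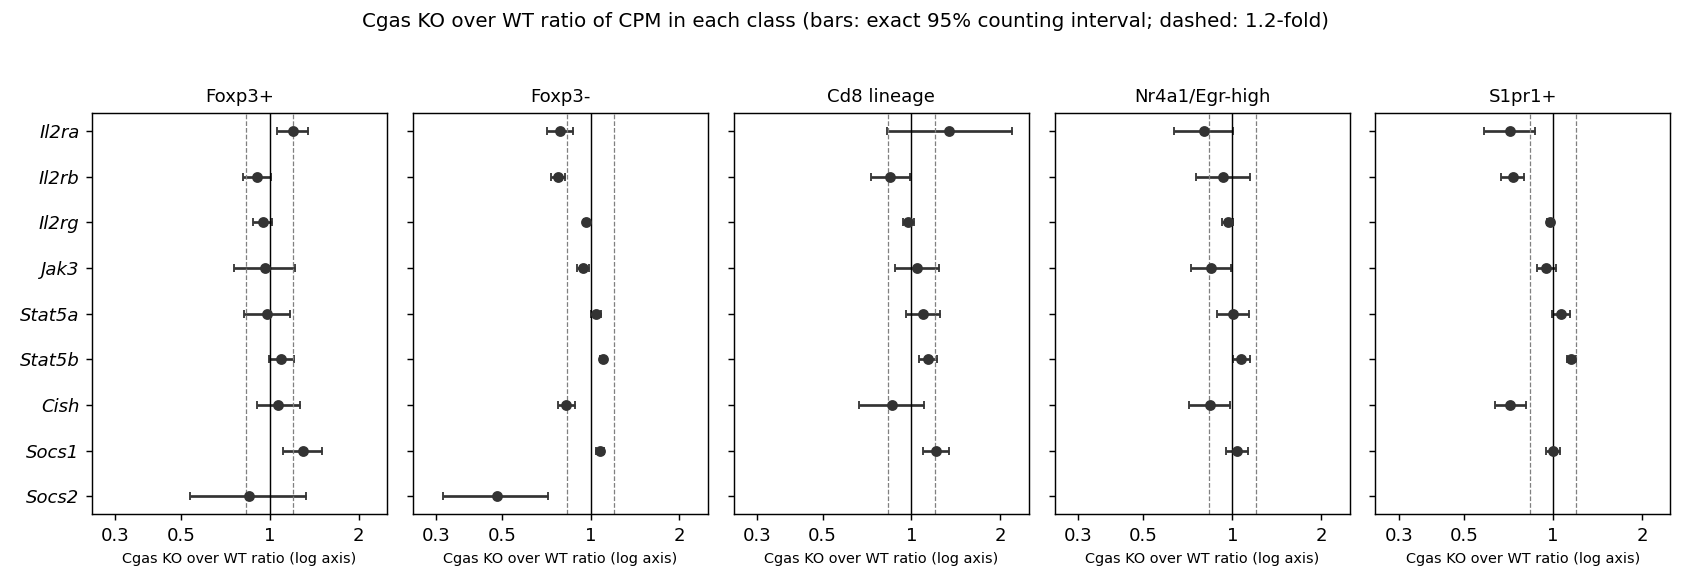
Cgas KO over WT ratio of CPM (x axis, log scale) for each gene in 5 classes, with exact 95% counting intervals and dashed lines at 1.2-fold; Socs2 is left out where it had under 20 UMIs in both libraries together. Il2ra, Il2rb and Cish lie left of the lower line in Foxp3- and S1pr1+ barcodes, and Socs1 lies right of the upper line in Foxp3+ and Cd8 lineage barcodes.

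Genes downstream of STAT5 were read from a list of 30 targets known mostly from peripheral T cells. Of 28 with enough UMIs, 10 were at least 1.5-fold higher and 2 lower in Foxp3+ than in Foxp3- barcodes of Cgas KO, and 8 higher and 1 lower in WT. Of all genes, 4.52% were higher and 3.95% lower by that much in Cgas KO, and 4.13% higher and 2.57% lower in WT. The median log2 ratio was 0.28 in Cgas KO and 0.10 in WT, against -0.08 and -0.07 over all genes. Hopx, needed for Treg function in the periphery, led at 82.6 against 4.6 CPM in Cgas KO (ratio 18.0) and 129 against 6.91 CPM in WT (ratio 18.7). The inhibitory receptor gene Ctla4 had ratios of 4.38 and 5.13, and the costimulatory receptor genes Tnfrsf4 (OX40) and Tnfrsf18 (GITR) had 3.56 and 2.77, and 2.71 and 2.56. Ctla4, Tnfrsf4 and Tnfrsf18 are Treg markers as well, so the list is not specific to STAT5. Of 5 genes that STAT5 represses, Tcf7 was lower at 621 against 998 CPM in Cgas KO and 599 against 953 CPM in WT (ratios 0.622 and 0.629), and Il7r had ratios of 0.651 and 0.677, while Bcl6 had 1.36 and 1.47. The median log2 ratio of the 5 was -0.08 in Cgas KO and 0.03 in WT, so as a list they were not below all genes.

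In Foxp3-Il2ra+ over Foxp3-Il2ra- barcodes, 14 of 28 targets were higher in each library, with 2 lower in Cgas KO and 4 in WT. Of all genes, 6.7% were higher and 5.25% lower in Cgas KO, and 7.02% higher and 5.12% lower in WT. The medians were 0.57 in Cgas KO and 0.58 in WT, against -0.04 and -0.03 over all genes. Hopx had ratios of 19.3 and 14.2, Tnfrsf4 of 6.75 and 5.65 and Tnfrsf9 (4-1BB) of 5.28 and 5.75, Cgas KO first. Pim1, a kinase gene induced by STAT5, had a ratio of 4.09 in Cgas KO, at 218 against 53.4 CPM. The STAT5-repressed genes had medians of -0.48 and -0.46, with Il7r at 0.567 and 0.504.

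Between genotypes, 0 of 29 targets were higher and 5 lower past 1.2-fold in Foxp3- barcodes, against 1.56% and 1.29% of all genes, with a median log2 ratio of -0.04 against 0.00 over all genes. Of the 5, Hopx had a ratio of 0.665 (0.577 to 0.765), at 4.6 CPM in Cgas KO and 6.91 CPM in WT. Id2, an inhibitor of E proteins, had a ratio of 0.748 (0.725 to 0.772), at 96.3 and 129 CPM. The phosphatase gene Dusp6 and the transcription factor gene Nfil3 had ratios of 0.776 and 0.796. Prf1, which encodes perforin, had a ratio of 0.761 (0.610 to 0.947) from 150 and 192 UMIs. Hopx and Prf1 stood below the level of 20 CPM required of the genes behind the 1.56% and 1.29%. In Foxp3+ barcodes 6 of 27 targets were higher and 4 lower, against 9.92% and 11% of all genes, with Id2 at 0.622 (0.493 to 0.780), Hopx at 0.638 (0.532 to 0.763) and Pim1 at 1.37 (1.16 to 1.62), and a median of -0.01. Id2 and Hopx were thus lower in Cgas KO in both classes.

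The rest of the pathway was read from further lists. In Foxp3+ over Foxp3- barcodes, 4.52% of all genes were 1.5-fold higher and 3.95% lower in Cgas KO, and 4.13% and 2.57% in WT. Of 8 other JAK and STAT genes, 1 was past 1.5-fold higher in Foxp3+ barcodes of each library, Stat4 with ratios of 1.56 and 1.59, and 0 were lower. Between genotypes 0 of 8 passed 1.2-fold in Foxp3- barcodes. Of 10 other SOCS genes and negative regulators, 2 were 1.5-fold higher and 1 lower in Foxp3+ barcodes of Cgas KO. In WT 1 was higher and 1 lower. The median log2 ratio of Foxp3+ over Foxp3- was -0.32 in Cgas KO and -0.09 in WT, against -0.08 and -0.07 over all genes. Socs5 led, at 3.62 (2.56 to 5.01) in Cgas KO and 2.38 (1.70 to 3.24) in WT. Between genotypes 0 of 10 passed in Foxp3- barcodes, and in Foxp3+ barcodes 2 were higher (Socs3 and Socs5) and 3 lower (Ptpn2, Ptpn11 and Socs6), against the 9.92% and 11% of all genes given above. Of these, Ptpn2, a phosphatase gene, had an interval below 1, at 0.776 (0.626 to 0.957), and the intervals of the other genes included 1. Of 10 proximal signalling genes, 1 was 1.5-fold higher and 1 lower in Foxp3+ barcodes of Cgas KO, and 0 passed in WT. Pik3r1, a regulatory subunit of PI3 kinase, stood at 1.65 in Cgas KO and 1.49 in WT in Foxp3+ over Foxp3- barcodes. In Foxp3- barcodes 0 of 10 differed by 1.2-fold between genotypes. In Foxp3+ barcodes 1 of 8 measured was higher (Akt1) and 1 lower (Shc1), both within counting error of 1. A further list held 6 receptor chains, of the common gamma chain family plus the related Crlf2. In Foxp3+ barcodes of Cgas KO, 1 was higher (Il9r, with 2 UMIs in Foxp3+ barcodes) and 1 lower (Il7r, above). In WT 1 of 5 measured was higher (Il15ra, at 1.6 from 18 UMIs). Between genotypes 1 of 6 was past 1.2-fold higher in Foxp3- barcodes, Il9r at 1.25 (0.588 to 2.72) from 18 and 14 UMIs, which is within counting error of 1. Crlf2, which encodes the TSLP receptor, had 0.868 (0.829 to 0.909) there. In Foxp3+ barcodes 1 of 5 measured was lower, Il15ra, within counting error of 1.

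The ligand was all but absent from the sorted cells. Il2 had 0 UMIs in Foxp3+ barcodes of either library, and a count of 0 allows up to 1.43 CPM in Cgas KO and 0.88 CPM in WT (3 counts of the class total). It had 4 and 3 UMIs in Foxp3- barcodes. Il15 had 14 and 29 UMIs and Il7 had 0 and 1 in Foxp3- barcodes, Cgas KO first.

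Across 10 sums (5 disjoint classes in 2 libraries), the genes whose log2 level followed a member most closely were taken from 10389 genes. For Il2ra they were Lrrc32, Myo1e and Ggta1, with Pearson r of 0.994, 0.991 and 0.990. For Cish they were Dusp4, Pdcd1 and Spry1 (0.997, 0.991 and 0.985), and for Socs2 they were Ccr6, Bmyc and Ptger3 (0.993, 0.986 and 0.986). For Il2rb the closest was Trpc4ap (0.981), for Stat5a Slc16a3 (0.971), for Socs1 Slc7a1 (0.969), for Jak3 Myo1g (0.953) and for Stat5b Uqcrh (0.941). Among the 9 genes, Il2ra stood at 0.976 with Cish, 0.947 with Socs2, 0.923 with Stat5a and 0.874 with Il2rb, and at 0.0995 with Socs1 and -0.600 with Il2rg. These values describe 10 points that share 2 libraries and class definitions.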

How the data were processed

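Gene expression was measured in 1 droplet library of sorted CD4+CCR7+ thymocytes per genotype. The matrices that the authors deposited hold UMI counts per gene and barcode for all barcodes, 586687 in Cgas KO and 588428 in WT, with 87310091 and 84763106 UMIs. Per the file headers, the matrices come from Cell Ranger 8.0.1, whereas Cell Ranger 7.0, mm10 and Seurat 5.1.0 appear in the submitters' processing notes, and which applies could not be settled. The T cell receptor tables that the authors deposited, with UMI counts per contig, served only to count beta chains per barcode. Barcodes with under 500 genes (3 in Cgas KO, 1 in WT) were removed, and none exceeded 10% mitochondrial UMIs. No doublet caller was run.

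For each class of a library, counts were added up over barcodes and scaled by the total of that class. CPM has exact Poisson intervals, ratios have exact conditional intervals and shares have Clopper-Pearson intervals, all at 95%. A gene was measured at 20 or more UMIs in both groups together. The background over all genes required 100 UMIs in both groups together and 20 CPM in 1 of them. The 9 genes and the list genes were counted once measured, so some called genes lay below these limits. List medians used log2 ratios with 1 CPM added, and likeness used 10 CPM added and genes of at least 200 UMIs. Genotype calls used 1.2-fold and class calls 1.5-fold. Genes other than the 9 were named by a rule: up to 4 of each list with 100 UMIs and the largest distance from 1 on the log2 scale with 1 CPM added, and the 3 most alike per gene, of which some are not reported here. The 9 genes, classes and lists were chosen with earlier results of these data known. The ratio code was tested on simulated data. Software was scipy 1.17.1, pandas 2.3.3 and numpy 2.4.6 under Python 3.11.15, with matplotlib 3.10.9 for plots and edgeR 4.0.16 for TMM factors only. Promoter windows came from RefSeq, GRCm38.p6. No genome coordinates come from the matrices.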

Additional observations from a re-analysis of the deposited data

Results flagged for a closer look

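Il2ra had a Cgas KO over WT ratio of 1.198 in Foxp3+ barcodes and of 0.788 in Foxp3- barcodes, so that the Cgas KO library lay on opposite sides of WT in the 2 classes. Over the alternative settings the ratio ranged from 1.05 to 1.32 in Foxp3+ and from 0.753 to 0.834 in Foxp3- barcodes. The ratio of thinned shares in Foxp3+ barcodes, 1.05 (0.786 to 1.39), was within counting error of 1. With 1 library per genotype the difference between the classes was not tested.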

How the results depend on the processing

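No paired analysis was possible because there was 1 expression library per genotype. For the 9 genes, no called ratio of Cgas KO over WT or of Foxp3+ over Foxp3- changed its direction; other ratios between classes, the splits by Il2ra and single STAT5 targets were not recomputed. The Il2ra ratio of Cgas KO over WT in Foxp3+ barcodes was 1.05 with each barcode weighted equally and 1.06 with thinned sums, and that of Il2rb, 0.906 in the report, was 0.802, 0.76 and, at 2 or more Foxp3 UMIs, 1.01. The count of genes past 1.2-fold there, 1 in the report, was 3 at 4000 UMIs or more, 2 at 5% mitochondrial UMIs, 2 with equal weights, 3 with thinned sums, 2 without barcodes of 2 or more beta chains, 4 at 2 or more Foxp3 UMIs and 0 at 1.5-fold. The count in Foxp3- barcodes, 4 in the report, was 2 with equal weights and 1 at 1.5-fold. Over the alternatives, the count ranged from 0 to 3 in Cd8 lineage barcodes (2 in the report), from 0 to 2 in Nr4a1/Egr-high barcodes (1 in the report) and from 0 to 4 in S1pr1+ barcodes (3 in the report), where the 0 came from the 1.5-fold threshold. The Foxp3+ over Foxp3- ratio of Il2ra was 43.9 in Cgas KO and 26.2 in WT at 2 or more Foxp3 UMIs, 29.2 and 18.6 with free RNA subtracted, and in WT 19.4 with equal weights and 19.6 with thinned sums. The median of STAT5 targets in Foxp3+ barcodes was 0.11 without barcodes of 2 or more beta chains. The cause of these shifts was not tested. A recomputed value stayed if within the counting interval, within 1.5 times for counts, or within a fixed log2 distance for list medians. Of the main values, 114 stayed and 18 moved further. Of the other values, 622 stayed and 52 moved further. Il2ra in Foxp3- barcodes ranged from 0.753 to 0.834 and Il2rb from 0.738 to 0.804. Shares were not recomputed at 1000 UMIs, with TMM factors, equal weights, thinned sums or free RNA subtracted. Depth limits Socs2 most, with 32 to 77 UMIs per class and library in Foxp3+ and Foxp3- barcodes.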
